A study of Homo sapiens with 12 samples.

Results

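Peak regions were read in METTL1 knockdown THP-1 cells after precipitation with an antibody against 7-methylguanosine (m7G) and in the input RNA. THP-1 cells derive from a human monocytic leukemia, and the phorbol ester PMA turns them into adherent cells that resemble macrophages. The deposited table lists 9958 peaks, and the members described here are the 6122 (61.5%) with at least 20 reads summed over the 6 knockdown libraries. They carry 3174 gene names. The 90 peaks with exactly 20 reads had a median of 15 reads in the immunoprecipitate and 5 in input, and the 112 peaks left out with 19 reads had medians of 15 and 4.

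The groups were KD IP and KD IN, the immunoprecipitate and what was taken as the input of cells with a short hairpin against METTL1, with NC IP and NC IN, from the control, beside them. Each held 3 libraries, 12 in all. All cells had received PMA at 100 ng/ml for 48 h, and the RNA was polyadenylated. The labels do not say whether the libraries of a group came from separate cultures or how many knockdown lines were made, so p-values measure the spread between libraries, which may be technical. No peak overlapped METTL1 or WDR4, nor RNMT or BUD23, which methylate the mRNA cap and 18S ribosomal RNA, so the knockdown itself could not be checked here.

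METTL1 is the catalytic subunit and WDR4 the partner of a methyltransferase that places m7G in the variable loop of many tRNAs and, as reported, at internal sites of some mRNAs. The m7G of the mRNA cap is made by RNMT, not by METTL1. An antibody against m7G can therefore meet the base at the capped 5 prime end and inside the RNA, and the question of the comparison is which regions were higher or lower in the immunoprecipitate than in input in knockdown cells.

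The starts of 8 transcripts serve as examples of both directions, 4 genes whose start region was higher in KD IP and 4 whose start region was lower. They are not the 8 most extreme start regions. Each is the first 30 bases of the RefSeq transcript on GRCh38.p14, written 5 prime to 3 prime, and the capital marks the annotated first base, the one that would carry the cap.
ZFAND5: Gttagtcggccgggacgcggagctgtgtgc
LPAR2: Ctctcagcaacccgcacagggcgcacccgg
EIF4G1: Ggaaatggttgtggactacgtctgtgcggc
DUSP2: Ggagtcgaccgctcgggcagcgccaccgcc
M6PR: Agagtggggcacagcgaggcgctaggggga
NAP1L1: Cttttttagcgccatctgctcgcggcgccg
HDHD2: Aacttccggcgtccgtcgggcagcagcggg
RPL28: Ctctttccgtctcaggtcgccgctgcgaag
ZFAND5 (chr9:72365179-72365208, minus strand) and LPAR2 (chr19:19628191-19628220, minus strand) belong to the regions with the largest enrichment. Most of the LPAR2 region (19628099 to 19628930) lay upstream of its annotated first base, so its reads need not come from a transcript that starts there. EIF4G1 (chr3:184314606-184314635, plus strand) and DUSP2 (chr2:96145411-96145440, minus strand) also lay above input. M6PR (chr12:8949616-8949645, minus strand), NAP1L1 (chr12:76084656-76084685, minus strand), HDHD2 (chr18:47150471-47150500, minus strand) and RPL28 (chr19:55385932-55385961, plus strand) lay below it. NAP1L1 and RPL28 start with C followed by a run of pyrimidines, as does LPAR2 over a shorter run. These are examples, and shares over all start regions are given below.

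The 6 knockdown libraries held 1787635, 1879201 and 1505888 reads in member regions in KD IP, against 1070829, 1102209 and 951055 in KD IN. These are reads in peaks, not the sequencing depth. Log2 levels correlated across regions at 0.966 to 0.973 among KD IP libraries, 0.928 to 0.937 among KD IN libraries and 0.881 to 0.894 between KD IP and KD IN. Of 40 macrophage and monocyte markers, 13 had a peak region, with a summed level of 2865 to 3149 CPM in KD IN and 1573 to 1670 CPM in NC IN. These sums are scaled to the reads of each library in the non-overlapping regions of all 9958 peaks, without TMM. Every other CPM value is scaled, with TMM, to the reads in member regions, so the sums are not comparable with those values. Of 21 markers of epithelial and kidney-derived lines, 11 had a region, with a sum of 2117 to 2479 CPM in KD IN and 18103 to 19300 CPM in NC IN. Neuronal genes summed to 899 to 1125 CPM in KD IN and 12000 to 13529 CPM in NC IN. These lists are not separate evidence, since NEFM, a neurofilament gene in both, had 0, 5 and 1 reads in KD IN, against 7243, 5843 and 6891 in NC IN. Nearly all of the epithelial sum in KD IN came from TCEAL9, with 1412, 1619 and 1183 reads. DSP, the junction protein desmoplakin, with 0, 2 and 1 reads in KD IN, against 490, 413 and 460 in NC IN, and HOXC8, a homeobox gene, with 0, 2 and 0 reads in KD IN, against 146, 114 and 152 in NC IN, also set the control libraries apart. Whether both groups are the same cell line, as labelled, was not tested. This touches every KD minus NC value, and the results below rest on the knockdown libraries alone unless NC is named.

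Regions lay on both sides of input in METTL1 knockdown cells. Of the 6122 regions, 1312 (21.4%) were higher in KD IP than in KD IN and 1052 (17.2%) were lower, 2364 (38.6%) in all, by edgeR's quasi-likelihood test at a Benjamini-Hochberg adjusted p under 0.05. The 2 peak sets of the table, named KD and NC, overlap, so counts for groups of genes use 1 region per cluster of overlapping peaks. That left 4396 regions, of which 742 (16.9%) were higher and 768 (17.5%) lower. Their median log2 IP over IN was 0.14, with quartiles of -0.58 and 1.08. A value of 0 is the average peak region after scaling and not the transcriptome, so a region below 0 was less enriched than that average and need not lack the antibody's signal.

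Higher regions reached larger folds than lower ones. Among the 4396, 603 of the higher regions differed by at least 2-fold and 313 by at least 4-fold, against 226 and 64 of the lower ones. With regions lacking input reads set to a floor of 3 reads over the group, 299 of the higher ones reached 4-fold. The higher regions had a median of 35 reads in KD IN and a median width of 390 bases, and the lower ones had 602.5 reads and 211 bases. Regions past neither threshold had a median of 25 reads in KD IN. Input reads correlated with log2 IP over IN at a Spearman's rho of -0.521 across regions. The ratio itself has input below the line, and the part of input level in the results for genes and groups was not tested.

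**Figure D1:**
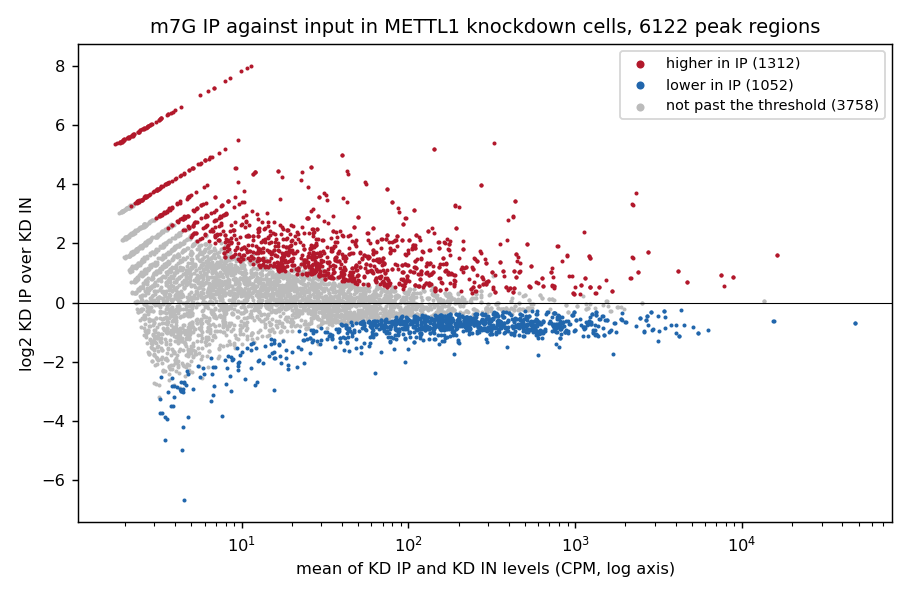
Each point is 1 of the 6122 regions, with the mean of its KD IP and KD IN levels in CPM on a log axis and its log2 KD IP over KD IN on the vertical axis. The 1312 higher regions spread upwards, mostly at low and middle levels, with lines of points at the top left where input had few or no reads, and the 1052 lower regions lie mostly in a band just under 0 at higher levels.

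Of regions in exactly 1 protein-coding gene of the nuclear genome, with at least 20 reads on both sides, the highest by log2 was FBXW4, an F-box protein of ubiquitin ligases (chromosome 10, 101694460 to 101695200). It had 735, 606 and 580 CPM in the KD IP libraries, against 18.2, 15 and 11.8 CPM in the KD IN libraries, a log2 of 5.40 ± 0.19 (SE; adjusted p = 7.5e-13, edgeR). Every IP library of this region lay far above every input library. Non-overlap of IP and input libraries was a condition for naming the highest and lowest regions, so it adds no support. Over all 4396 regions, every IP library lay above every input library in 27.3% and below in 22.6%. ZFAND5, a zinc finger protein that binds ubiquitin and the proteasome, had 410, 458 and 670 CPM in KD IP, against 31.3, 28.2 and 37.7 CPM in KD IN, 15.8-fold higher. LPAR2, a receptor for lysophosphatidic acid, had 89.6, 59.7 and 84.9 CPM in KD IP, against 13.1, 7.52 and 1.08 CPM in KD IN, 10.5-fold higher. The spread of its input libraries was wide, and the log2 was 4.09 without KD IN replicate 1, against 3.39 with all libraries.

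The regions named ASPHD1 and APOBR combined a high fold with a high level. ASPHD1, a protein with an aspartate beta-hydroxylase domain (chromosome 16, 29900375 to 29901175), had 4545, 3723 and 4591 CPM in KD IP, against 319, 296 and 370 CPM in KD IN (log2 3.71 ± 0.13, edgeR adjusted p = 7.5e-13). APOBR, the macrophage receptor for apolipoprotein B48, had 5488, 3759 and 2744 CPM in KD IP, against 440, 300 and 440 CPM in KD IN (log2 3.35 ± 0.20). Its 3 IP libraries differed from each other by more than those of ASPHD1. The APOBR region was read on the minus strand, and the RNA read there may lie opposite to that gene. The others of the highest 10 of this kind were SIX5, a homeodomain transcription factor (log2 3.83), ZSWIM9 (3.43), EMC10, a subunit of the endoplasmic reticulum membrane complex (3.40), SEC14L1, a lipid-binding protein (3.29), and POLR2H, a subunit shared by the nuclear RNA polymerases (3.19).

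Of the 4396 regions, 55 had 0 reads in the 3 KD IN libraries. They reached the minimum of 20 reads through IP alone, so their higher level in IP was set by that minimum and is given as a description. FXR2, an RNA-binding relative of the fragile X protein, had 25.6, 25.5 and 17.1 CPM in KD IP and 125 IP reads in all, at least 23-fold higher against the same floor of 3 input reads. SLC17A7, a vesicular glutamate transporter, was at least 20.2-fold higher, TMEM178A at least 16.7-fold, NIBAN2 at least 12.7-fold, and KCNJ11, a pore subunit of ATP-sensitive potassium channels, at least 13.8-fold. Floors and intervals cover counting error only, since reads are not independent molecules. In 1 region IP had no read, and input alone took it past the minimum: ZNF627, a zinc finger gene, had 0 CPM in each KD IP library, against 8.08, 9.39 and 9.69 CPM in KD IN. Its fitted log2 IP over IN was 2.40 in NC (KD minus NC change, edgeR adjusted p = 0.10).

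At the lower end, SPATA1, a gene named for spermatogenesis (chromosome 1, 84506360 to 84506657), had 13.9, 23.5 and 23.4 CPM in KD IP, against 59.6, 101 and 156 CPM in KD IN, 5.19-fold lower (log2 -2.37 ± 0.32, edgeR adjusted p = 1.3e-05). M6PR, the cation-dependent mannose 6-phosphate receptor that sorts lysosomal enzymes, had 8.53, 7.65 and 3.17 CPM in KD IP, against 31.3, 28.2 and 34.4 CPM in KD IN, 4.72-fold lower. NAP1L1, a histone chaperone, had 45.3, 38.3 and 29.1 CPM in KD IP, against 164, 144 and 152 CPM in KD IN, 4.04-fold lower. None of these groups overlapped, as the rule for naming them required. Of the 3 regions NAP1L1 rests on the most reads, 206 in KD IP and 456 in KD IN. The others of the lowest 10 were RGS3, a regulator of G protein signalling (log2 -2.21, with 1.57 in NC and an edgeR adjusted p of 0.22 for the change), SSTR2, a somatostatin receptor (-2.18), NDUFB1, of respiratory complex I (-2.09), a region near the 3 prime end of MYL6, a myosin light chain (-2.05), EIF2AK3, the stress kinase PERK (-2.05), PPP2R3C, a phosphatase subunit (-2.05), and NAP1L5 (-2.02). NAP1L5 missed the threshold without KD IP replicate 1 (log2 -1.77) or KD IN replicate 3 (log2 -1.65), and NDUFB1 had -2.68 without KD IP replicate 2.

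**Figure D2:**
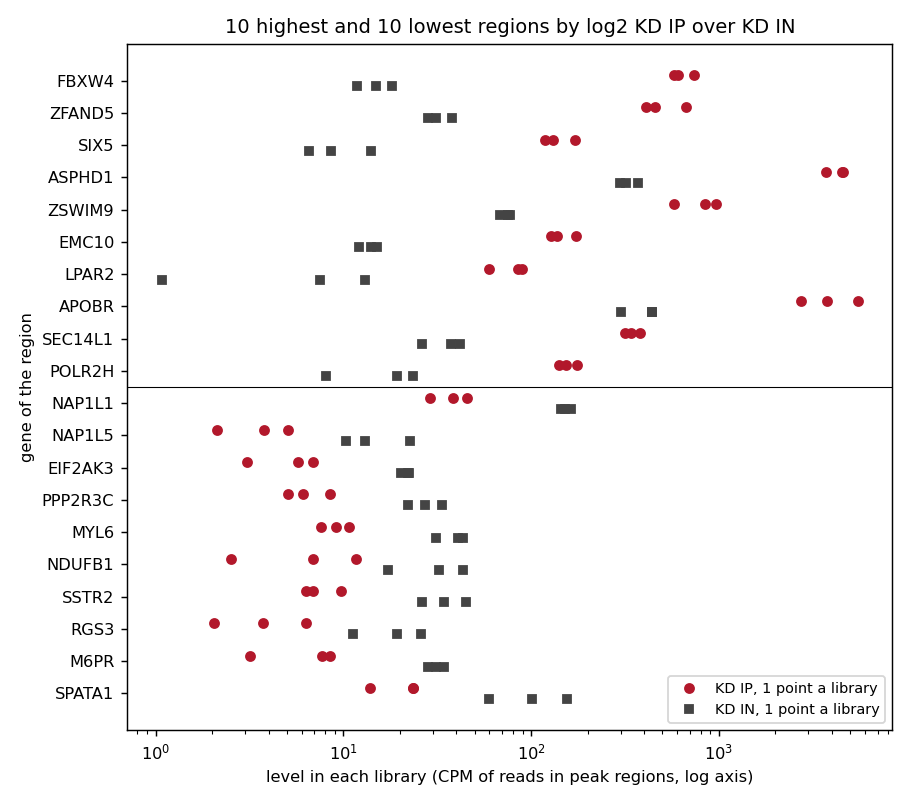
Each row is a region, with the 3 KD IP libraries (circles) above the 3 KD IN libraries (squares), in CPM on a log axis, for the 10 highest regions over the line and the 10 lowest under it. The libraries of IP and IN do not overlap in any of these rows, as the rule for naming them required, and the lowest 10 have levels of at most 164 CPM.

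The deposited peak list held regions of both directions, and the authors' fold was larger for the higher ones. In the authors' deposited table, which gives a fold enrichment for each peak, the 139 KD-named members (4.63%) with fewer IP than input reads had folds of 1.09 to 44.4, with a median of 1.47. SPATA1 had a fold of 11.1 in the authors' deposited table beside 109 reads in KD IP and 311 in KD IN. In that deposited table the median fold by the authors was 13.6 for the 718 KD-named members higher in KD IP and 1.64 for the 476 lower ones. The authors' fold and log2 IP over IN correlated at a Spearman's rho of 0.739 across KD-named members. By their names, the NC peaks were not called on knockdown libraries, although the way calls were made is not given in the sources used here. The 1417 NC-named members that overlap no KD peak were higher in KD IP in 4.73% and lower in 20.1%, with a median log2 of -0.51. The 1332 KD-named members that overlap no NC peak were higher in 13.3% and lower in 14.8%, and the 1670 KD-named members that do overlap one were higher in 32.4% and lower in 16.7%. By their names, the KD peaks were called on these same libraries, so their shares are a description.

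Mitochondrial transcripts, made from both strands of a circular genome and cut at their tRNAs, moved in both directions. They took 13.4, 12.8 and 13.0% of the reads in non-overlapping member regions in the KD IP libraries, against 9.26, 7.97 and 5.44% in the KD IN libraries. The lowest share was that of KD IN replicate 3. Of 16 regions, 7 were higher, 5 lower and 4 neither. The number of regions called in all members was 2351 without the mitochondrial regions, an alternative added after the data were seen.

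The highest mitochondrial region was TRNA, the alanine tRNA gene on the minus strand (MT 5587 to 5655), with 302, 288 and 507 CPM in KD IP, against 32.3, 48.9 and 35.5 CPM in KD IN, 9.31-fold higher (log2 3.22 ± 0.23, edgeR adjusted p = 1.1e-08). TRNN, the asparagine tRNA gene beside it, had 149, 127 and 223 CPM in KD IP, against 43.4, 55.4 and 36.6 CPM in KD IN (log2 1.87 ± 0.23). ND6, the complex I subunit encoded on the minus strand, had 23589, 23360 and 25981 CPM in KD IP, against 9649, 8267 and 6032 CPM in KD IN, 3.05-fold higher (log2 1.61 ± 0.13). ND6 had more KD IP reads than any other region named here that was higher, 131030. These polyadenylated RNA libraries hold the strand of a tRNA gene within longer RNA as well, so a read there need not be a mature tRNA.

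The complex I subunits of the plus strand were higher too, ND4L at log2 1.02 ± 0.16, ND1 at 0.85 ± 0.16 and ND3 at 0.53 ± 0.11, as was the second CYTB region, of the complex III cytochrome b, at 0.55 ± 0.14. ATP8, of the ATP synthase, which overlaps the ATP6 region, had a log2 of 1.07 ± 0.13, while ATP6 itself had 0.06 ± 0.17 and overlapping libraries. Regions of TRNS1, a serine tRNA gene (log2 -1.0 ± 0.13), the 16S ribosomal RNA RNR2 (-0.66 ± 0.14) and 1 region of COX1 (-0.70 ± 0.16) were lower with no overlap of the libraries. A further COX1 region (-0.45 ± 0.14) and COX2 (-0.46 ± 0.14), both of complex IV, were lower with overlapping libraries. Both missed the threshold with library size alone (log2 -0.31 and -0.32). COX1 also did so with 1 region per cluster (log2 -0.35) and without KD IP replicate 2 or 3 or KD IN replicate 1 or 2, and COX2 without KD IP replicate 3 or KD IN replicate 1 or 2.

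**Figure D3:**
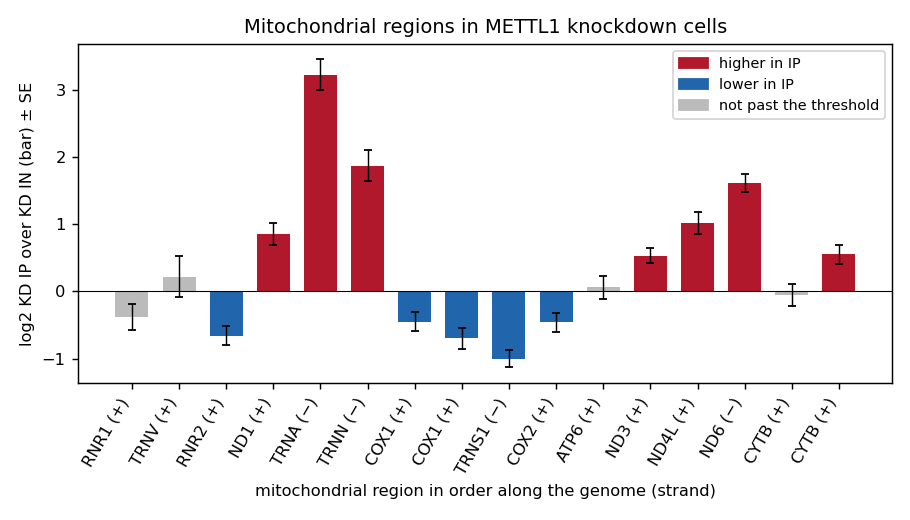
Bars give log2 KD IP over KD IN with its standard error for the 16 non-overlapping mitochondrial regions, in order along the genome with the strand in brackets. TRNA at 3.22, TRNN at 1.87 and ND6 at 1.61, all on the minus strand, are the 3 tallest bars, while TRNS1 on the same strand is at -1.0.

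The most abundant transcripts of the nuclear genome in input were mostly lower in IP. HSP90AB1, the cytosolic HSP90 chaperone (chromosome 6, 44250035 to 44250469), had 35155, 38320 and 36667 CPM in KD IP, against 57296, 57611 and 62473 CPM in KD IN (log2 -0.69 ± 0.09). HSP90AA1, its stress-inducible relative, was lower at -0.63 ± 0.10. YBX1, an mRNA-packaging protein (-0.93 ± 0.11), the main region of MYL6 (-1.04 ± 0.09), PPP1R15A, the phosphatase subunit that ends the integrated stress response (-0.82 ± 0.10), and FTH1, the ferritin heavy chain (-1.12 ± 0.10), followed. High level and enrichment also occurred together. CAP1, an actin-binding protein, had 9431, 10253 and 9849 CPM in KD IP, against 5515, 5295 and 4722 CPM in KD IN (log2 0.93 ± 0.09). CENPB, a centromere protein, had a log2 of 1.71 ± 0.11, TRIM44, a ubiquitin-system protein, 1.51 ± 0.10 and RAB13, a small GTPase whose mRNA is known to localise to cell protrusions, 0.71 ± 0.13.

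Regions with much input were more often lower. In the 1466 regions with at least 113 reads in KD IN, 45.2% were lower and 14.1% higher. The lists of protein folding, translation, RNA helicases and stress response had their median input in that range. Chaperone and heat shock genes, 10 in number, had 12 of 17 regions lower and 0 higher, with a median log2 of -0.66 against 0.14 over all 4396 regions. They include DNAJB6, a co-chaperone (log2 -0.93 ± 0.12), and CANX, the lectin chaperone calnexin (-0.85 ± 0.12). Of 12 regions of cytosolic ribosomal proteins, 8 were lower and 1 higher. RPS6, of the small subunit, had 758, 813 and 735 CPM in KD IP, against 2691, 2542 and 2528 CPM in KD IN, 3.36-fold lower (edgeR adjusted p = 4.4e-10), and RPS14 was lower at -1.06 ± 0.10. The exception was RPS7, with 23.5, 29.1 and 25.3 CPM in KD IP, against 5.05, 5.64 and 4.31 CPM in KD IN (log2 2.35 ± 0.45). The reads of ribosomal protein genes can be shared with processed pseudogenes, depending on how reads were counted, which is not given in the sources used here.

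Of 7 regions of elongation and release factors, 4 were lower and 0 higher, among them ETF1, the release factor (-1.01 ± 0.11), and EEF2, the translocation factor (-0.98 ± 0.15). Of 21 regions for cap binding and translation initiation, 7 were lower and 3 higher. PABPC4, a poly(A)-binding protein (-0.94 ± 0.10), EIF3G (-1.24 ± 0.15) and EIF4B (-0.95 ± 0.11) were lower, and the first region of EIF4G1, which links the cap-binding protein to the small ribosomal subunit, was higher, at 152, 136 and 189 CPM in KD IP, against 16.2, 29.1 and 30.1 CPM in KD IN (log2 2.66 ± 0.23). Of 20 RNA helicase regions 11 were lower and 0 higher, with a median of -0.73, such as DHX15 of spliceosome disassembly (-1.11 ± 0.12) and DDX39A of mRNA export (-1.63 ± 0.27). The stress response list (unfolded protein and integrated) had 8 of 21 regions lower and 0 higher, with ATF4, a transcription factor made under stress, at -1.02 ± 0.11.

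The median KD IN reads were 983 for chaperone regions, 476 for ribosomal proteins, 378 for cap binding and initiation, 208 for RNA helicases, 151 for the stress response and 128 for elongation factors. The lower share was 70.6% for chaperones, 66.7% for ribosomal proteins, 57.1% for elongation and 55% for RNA helicases. It was 33.3% for cap binding and initiation and 38.1% for the stress response. Of all regions with at least 113 KD IN reads, 45.2% were lower. The list shares cover regions at any input and the lists differ in their median, so input is not matched between these shares. Splicing factors and hnRNPs had 26 of 88 regions lower (29.5%, at a median of 160 KD IN reads) and 10 higher. SRSF5 was at -1.01 ± 0.10 and CELF1, a regulator of splicing and mRNA decay, at 1.32 ± 0.16. Glycolysis had 5 of 15 lower (33.3%, at a median of 208 KD IN reads) and 1 higher. ENO1, enolase, had 72.5, 87.8 and 101 CPM in KD IP, against 304, 312 and 253 CPM in KD IN, 3.33-fold lower, PKM was at -0.95 ± 0.09 and TPI1 at -1.04 ± 0.12. Nuclear genes of mitochondrial respiration had 8 of 20 lower (40%, at a median of 160 KD IN reads) and 2 higher. COX4I1 was at -1.06 ± 0.13 and NDUFB8 at -1.19 ± 0.17.

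Genes of the macrophage were mixed. Of 24 regions of the phagocyte oxidase and lysosome, 11 were lower (45.8%) and 2 higher, at a median of 327 KD IN reads. Of all regions with at least 113 KD IN reads, 45.2% were lower, and of all 4396 regions 17.5%. CD63, a lysosomal tetraspanin (-1.10 ± 0.10), and CTSL, cathepsin L (-1.13 ± 0.13), were lower, while CTSZ, cathepsin Z, had 307, 278 and 306 CPM in KD IP, against 99.0, 137 and 156 CPM in KD IN (log2 1.18 ± 0.16). Of 12 regions of macrophage and monocyte markers 3 were lower and 1 higher. LAPTM5, a lysosomal protein of leukocytes (-0.99 ± 0.11), and ITGB2, the shared beta chain of leukocyte integrins (-1.10 ± 0.16), were lower, and SPI1, the myeloid transcription factor PU.1, was higher, with 155, 145 and 156 CPM in KD IP, against 66.7, 96.8 and 67.8 CPM in KD IN (log2 0.97 ± 0.18).

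Adhesion and matrix protease genes induced by PMA had 4 of 16 regions lower and 2 higher, with MMP9, a gelatinase, at -1.02 ± 0.15 and the integrin chains ITGB5 at 1.57 ± 0.36 and ITGB3 at 0.82 ± 0.20. Inflammatory signalling had 4 of 12 lower and 2 higher. CASP1, the inflammasome protease, was at -0.87 ± 0.16, and TNFAIP2, a gene induced by tumour necrosis factor, at 1.55 ± 0.35. Among cytokines and growth factors, 3 of 12 regions were lower and 1 higher. VEGFA, the vascular growth factor, was the higher one, with 1019, 903 and 933 CPM in KD IP, against 481, 536 and 564 CPM in KD IN (log2 0.85 ± 0.11), and HBEGF, an epidermal growth factor receptor ligand, was lower at -0.74 ± 0.14. None of the 4 antigen presentation regions passed, and CD74, the invariant chain, had a log2 of -0.24 ± 0.19.

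Actin genes had 10 of 28 regions lower (35.7%, at a median of 149 KD IN reads) and 4 higher. Of all regions with at least 113 KD IN reads, 45.2% were lower. ACTB, beta-actin, was at -1.02 ± 0.09 and PFN1, profilin, at -1.07 ± 0.22. Lipid and cholesterol genes had 11 of 31 lower (35.5%, at a median of 100 KD IN reads) and 4 higher. A pair of neighbouring desaturase genes differed in sign. FADS2 had 187, 160 and 108 CPM in KD IP, against 58.6, 30.1 and 54.9 CPM in KD IN (log2 1.67 ± 0.25), while FADS1 was lower at -0.84 ± 0.11. ACSL1, which activates long-chain fatty acids, was lower at -1.36 ± 0.23. In the proteasome 6 of 14 regions were lower and 4 higher, with PSMC3, a subunit of the base, at -1.03 ± 0.10 and PSME4, an activator cap, at 1.46 ± 0.23. RNA modification and stress granule genes had 6 of 29 regions on each side. ADARB1, an adenosine deaminase acting on RNA, had 94.4, 67.9 and 86.8 CPM in KD IP, against 4.04, 2.82 and 5.38 CPM in KD IN, 20.2-fold higher. With 447 KD IP and 12 KD IN reads, it met the minimum of 20 only with IP reads, which partly sets its direction. PUS1, a pseudouridine synthase, was higher at 2.15 ± 0.21, and DKC1, the pseudouridine synthase of small nucleolar RNPs, lower at -0.99 ± 0.10.

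Zinc finger ZNF genes, synaptic genes, ubiquitin enzymes and MAP kinase genes had more regions higher than lower, as had all regions with few input reads. In the 1465 regions with 18 to 112 reads in KD IN, 18% were higher and 7.03% lower. Of 72 ZNF regions 20 were higher (27.8%, against 16.9% of all regions) and 4 lower, with a median log2 of 0.74. ZNF787 had 378, 354 and 300 CPM in KD IP, against 94.0, 79.9 and 70.0 CPM in KD IN (log2 2.08 ± 0.15), and ZNF768 had a log2 of 1.63 ± 0.12. Of 22 regions of neuronal and synaptic genes 10 were higher and 3 lower. DLG4, a scaffold of the postsynaptic density, had 94.4, 64.8 and 84.3 CPM in KD IP, against 12.1, 19.7 and 8.61 CPM in KD IN, 5.90-fold higher, and SHANK1, another such scaffold, was 6.42-fold higher. These are low-level transcripts, with a median of 22 KD IN reads for ZNF regions and 21 for synaptic ones. A region with under 20 KD IN reads meets the minimum only with KD IP reads, so its direction is partly set by that minimum. Of the 1465 regions with 0 to 18 KD IN reads, 273 were higher and 3 lower.

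Of 27 regions of MAP kinases and DUSP phosphatases 6 were higher and 2 lower. DUSP2, a nuclear phosphatase of MAP kinases, had 291, 290 and 411 CPM in KD IP, against 60.6, 57.3 and 53.8 CPM in KD IN (log2 2.53 ± 0.17), and SPRED3, of a family that restrains RAS signalling, had a log2 of 4.02 ± 0.30. Ubiquitin enzymes and deubiquitinases had 21 of 105 higher and 8 lower, which is 20% higher and 7.62% lower. The median was 36 KD IN reads, and these shares are close to the 18% and 7.03% of all regions with 18 to 112 reads. The list also holds regions at other input levels, so input is not matched. MAP kinase regions had a median of 37 KD IN reads and 22.2% higher. Ion channel subunits had 10 of 47 higher and 4 lower, with PIEZO1, a mechanically gated channel, at 1.2 ± 0.18. Membrane traffic, with 17 of 96 higher and 16 lower, and solute carriers, with 11 of 64 higher and 10 lower, had shares close to those of all regions. Chromatin modifiers had 15 of 124 higher and 31 lower, such as SIRT1, a deacetylase, at 1.27 ± 0.18 and CHD4, a remodeller, at -1.07 ± 0.14.

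The remaining lists were small or mixed. Microtubule and kinesin genes had 12 of 37 regions lower (32.4%, at a median of 116 KD IN reads) and 6 higher. DYNC1H1, the dynein heavy chain, was at -1.24 ± 0.18 and DYNC1LI2, a dynein light intermediate chain, at 1.32 ± 0.17. Immediate-early and growth transcription factors had 8 of 31 lower and 6 higher, with FOSL2, of the AP-1 family, at 1.72 ± 0.19 and SRF, the serum response factor, at 0.91 ± 0.11. Of 6 iron and oxidative stress regions 3 were lower and 1 higher, among the lower ones SOD1, a superoxide dismutase (-1.07 ± 0.13), and NFE2L2, the antioxidant factor NRF2 (-1.08 ± 0.20). BCL2 family and apoptosis genes had 2 of 16 higher, led by BCL2L12 at 1.82 ± 0.15, and 0 lower, and cell cycle genes 2 of 17 higher and 1 lower, TOP2A, a topoisomerase, at -0.72 ± 0.17. Aminoacyl-tRNA synthetases had 2 of 8 lower and 1 higher, WARS1 for tryptophan at 0.72 ± 0.14, and mitochondrial ribosomal proteins 1 of 10 on each side. Of 8 regions of epithelial and kidney-derived line markers 3 were lower and 1 higher, of 5 fibroblast ones 1 was lower, and lymphoid and erythroid markers had 0 regions here.

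**Figure D4:**
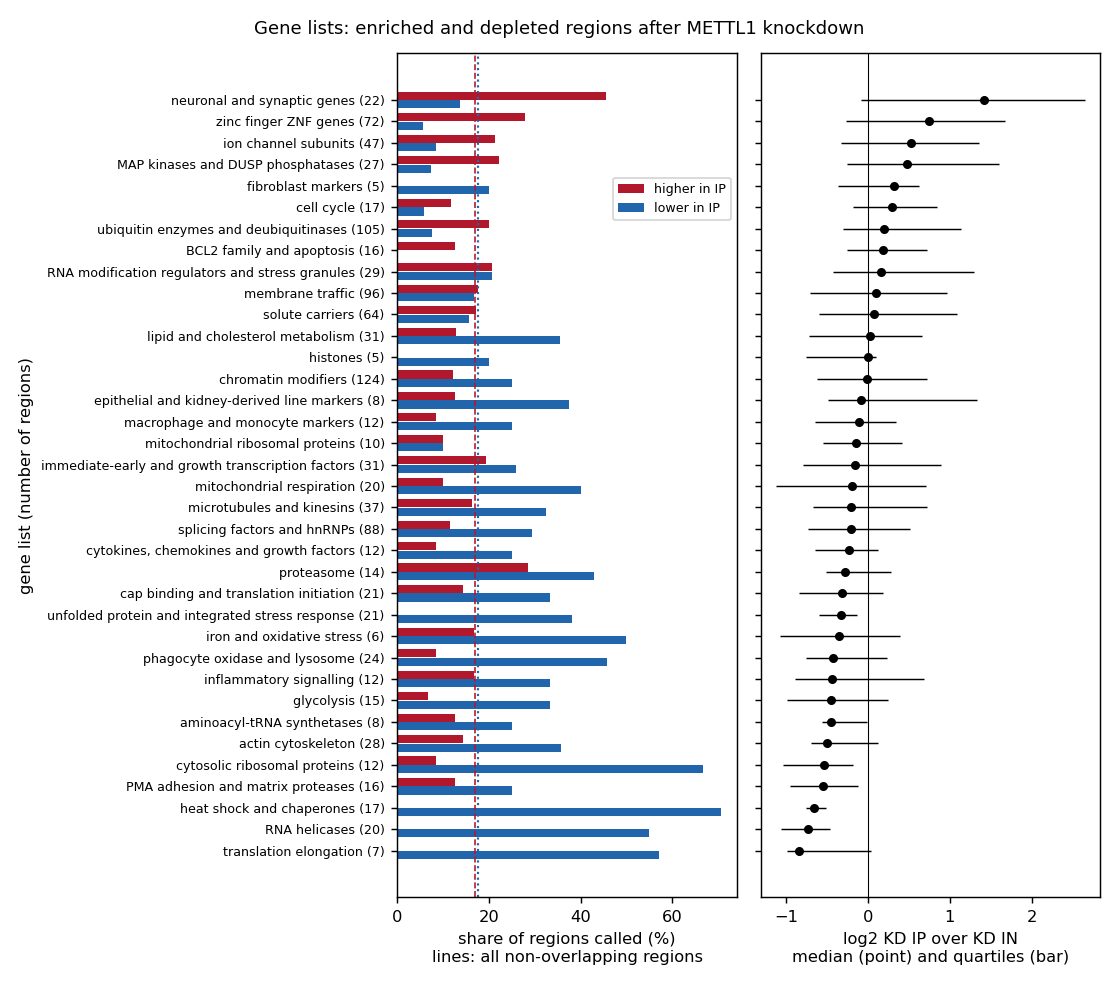
For gene lists with at least 5 regions, the left side gives the share of regions higher and lower in KD IP, with the shares over all 4396 regions as lines at 16.9% and 17.5%, and the right side the median and quartiles of log2 KD IP over KD IN. Neuronal and synaptic genes lie at the top with 45.5% higher, and elongation factors, RNA helicases and chaperones at the bottom with 0% higher.

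Position in the gene went with the direction. Among 3431 regions of genes whose strand was known, the 739 that covered the annotated start were higher in 23.1% and lower in 11.5%, with a median log2 of 0.46. The first 10% of the gene body held 1413 regions, of which 21.0% were higher and 11.9% lower. Between 10% and 90% these shares were 11.9% and 25.3% of 1244 regions, with a median of -0.22, and in the last 10% they were 10.9% and 21.3% of 774 regions. Positions count introns, since the annotation at hand gave no exons.

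The order held at each input level among regions with a known position. With up to 18 reads in KD IN, the median log2 was 1.30 in the 497 regions in the first 10% of genes and 0.92 in the 620 others. With 18 to 112 reads it was 0.38 in 514 and -0.04 in 642 regions, and with more it was -0.25 in 402 and -0.55 in 756 regions. Wider regions were more often higher, in 36.5% of 727 regions of at least 500 bases and 5.38% of 780 regions under 100 bases, whereas the lower share was 18.8% and 18.2%.

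Regions of the same gene were also compared with each other. They can lie on different transcripts, and their own input differed widely, with 131 and 3923 KD IN reads in the regions of PPP6R1 described next and 113 and 11208 in those of ZEB2. Of 743 genes with at least 2 separate regions, 201 (27.1%) had regions that differed in log2 IP over IN by edgeR's within-gene test (adjusted p under 0.05). In 62 genes 1 region was higher and another lower. The first and the last 10% were both covered in 128 genes, and the first was the more enriched end in 96 (75%), with medians of 0.61 and -0.30. Among the 40 of them that passed the test it was so in 36 (90.0%). Without KD IP replicate 2 the within-gene test called 121 genes.

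PPP6R1, a phosphatase regulatory subunit, had 195, 203 and 177 CPM in KD IP, against 45.5, 33.8 and 53.8 CPM in KD IN, in a region at 0.341% of the gene body. Its region at 93.3% had 777, 678 and 620 CPM in KD IP, against 1549, 1308 and 1074 CPM in KD IN. The log2 values were 2.12 ± 0.19 and -0.92 ± 0.13 (within-gene adjusted p = 5.5e-10, edgeR). The same order held in EIF4G1, at 2.66 in the start region shown above and -0.99 at 98.1% of the gene (within-gene adjusted p = 1e-09, edgeR). It held as well in LMO4, a LIM-domain cofactor (2.91 and -0.64), and ZEB2, a transcription factor (2.28 and -0.29). The lower value of ZEB2 missed the threshold with library size alone (log2 -0.16), with no count filter (-0.25), with 1 region per cluster (-0.20) and without KD IP replicate 1 or 2 or KD IN replicate 1 or 3. In HEXIM1, an inhibitor of transcription elongation made from a single exon, the first region was at 2.41 and the next at -0.26 and -0.34, which did not pass.

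The order was turned in NCL, the nucleolar protein nucleolin. Its first region had 395, 449 and 427 CPM in KD IP, against 1041, 1182 and 1089 CPM in KD IN (log2 -1.38 ± 0.11), a middle region was at -0.98 ± 0.11, and a region at 81.4% of the gene was higher at 0.39 ± 0.11. FERMT3, an integrin activator of blood cells, had -0.89 ± 0.14 at 4.77% of the gene and 1.78 ± 0.27 at 19.6%. In GNAS, a G protein subunit with several promoters, neighbouring regions were at 1.57 ± 0.12 and -0.64 ± 0.12. HNRNPU, a nuclear RNA-binding protein, kept the more common order, at 0.82 ± 0.12 in its first region and -0.52 to -0.67 in 3 regions further down. Another HNRNPU region, at 28.1% of the gene, had 10 KD IP and 11 KD IN reads and did not pass (-0.98 ± 1.03).

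**Figure D5:**
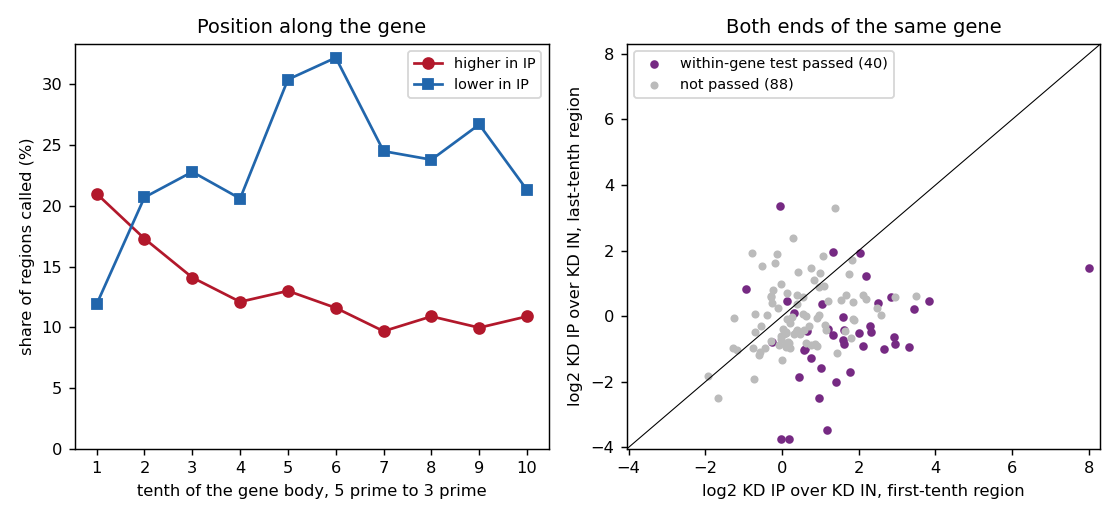
The left side gives the share of regions higher and lower in KD IP in each 10% of the gene body, 21.0% and 11.9% in the first and 10.9% and 21.3% in the last. The right side sets log2 KD IP over KD IN of the region in the first 10% (horizontal) against that of the region in the last 10% (vertical) in 128 genes, with 96 of them under the line of equal values; the point at 8.0 is FXR2, which had no input reads there.

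Start regions also differed in the base at the annotated start. It was G in 60.6% of 170 higher start regions (95% Clopper-Pearson interval 52.8 to 68.0), in 35.7% of 84 lower ones (25.6 to 46.9) and in 49.3% of 483 others (44.7 to 53.8), as in ZFAND5, EIF4G1 and DUSP2 above. It was C in 7.06% of the higher ones (3.7 to 12), 16.7% of the lower ones (9.42 to 26.4), as in NAP1L1 and RPL28, and 7.87% of the others (5.63 to 10.6). The intervals of higher and lower regions overlap for C, and LPAR2 is a higher region with C, although most of that region lies upstream of the annotated start. The start base was A in 32.4% of the higher ones (25.4 to 39.9), 46.4% of the lower ones (35.5 to 57.6) and 42% of the others (37.6 to 46.6). The intervals of higher and lower regions overlap for A as well. Among all 27305 promoters of the RefSeq table the shares were 33.2% for G, 15% for C and 44.3% for A. The letters GGCGGC, searched on both strands of the first 50 bases, were found in 36.5% of higher, 28.6% of lower and 32.1% of other start regions, and in 13.3% of all promoters. The median GC content of those bases was 72% in higher and 68% in lower start regions. The pyrimidine letters CTTTCC were found in 5.29% of higher, 4.76% of lower and 2.69% of other start regions, and in 4.33% of all promoters. These are descriptions of annotated starts, and the start used in these cells was not measured.

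The direction of single regions against the control was tested in all 12 libraries. No region (0%) passed at an adjusted p under 0.05 for the KD minus NC change of log2 IP over IN by edgeR, although 802 had an unadjusted p under 0.05, and the smallest adjusted p was 0.0905. There were 27 calls with DESeq2 and 32 with edgeR and a replicate block. Simulated 2-fold changes were recovered in 26% and 4-fold changes in 56% of regions, with 8.89% false calls. Many changes of 4-fold could thus be missed as well as smaller ones. The simulation took its spread from the KD libraries alone, although the test uses all 12. Each library is scaled to its own peak reads, which hides a shift shared by all regions. The control libraries stand apart in line marker genes, as given above, and the part of this in these values was not tested. Values of the named regions in NC stood near those in KD in several cases, with log2 values in KD and NC of 5.40 and 4.66 for FBXW4, 3.98 and 3.77 for ZFAND5, -2.02 and -1.99 for NAP1L1, and -1.75 and -1.55 for RPS6. HAPSTR1, a stress response regulator, had 522, 593 and 589 CPM in KD IP, against 113, 147 and 168 CPM in KD IN, a log2 of 1.99 ± 0.14 in KD and 0.86 in NC.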

How the data were processed

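The authors deposited raw read counts per peak region and library, whole numbers without normalization, per the file headers. A fold enrichment per peak is the authors' own deposited ratio, and their score column repeats it. Columns of p-values and of a log2 change between groups, deposited by the authors, were not used. The submitters' processing notes name fastp 0.23.4 and GRCh38. Aligner, peak caller and counter are not given in the sources used here, so whether peaks were called on pooled libraries is unknown.

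Members have at least 20 reads over the KD libraries. The count model was that of edgeR 4.0.16 under R 4.3.3 (TMM, quasi-likelihood F test, two-sided, Benjamini-Hochberg, threshold 0.05) on 6 libraries, within genes with diffSpliceDGE, and for KD minus NC on 12. DESeq2 1.42.0 and limma 3.58.1 were alternatives. Deposited starts count from 0, so 1 was added. Genes and strand came from RefSeq (GRCh38.p14); for 747 of 4396 non-overlapping regions the single gene had no strand there, so a region can lie opposite to it. Overlap means at least 1 base on the same strand, and the region with the most reads stood for a cluster.

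The members and 39 gene lists were chosen with earlier results of these data known. Named regions are the 10 highest and 10 lowest called regions in exactly 1 protein-coding nuclear gene with at least 20 reads in IP and in IN and no overlap, 1 a gene, the 5 without input reads and with the most IP reads, the 10 with the most IN or, among higher ones, IP reads, up to 4 genes a list and 10 within-gene genes by smallest p, 5 by the change, and the mitochondrial regions. On simulated data, 37% of 2-fold and 68% of 4-fold changes of IP over IN were recovered with 5.41% false calls, and within genes 41% and 83%. Some named regions are not reported here.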

Additional observations from a re-analysis of the deposited data

Results flagged for a closer look

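In 5 of the 222 named regions the KD and NC libraries were separated in opposite directions. The KD IP libraries lay on one side of all KD IN libraries, the NC IP libraries on the other side of all NC IN. EEF1A2 was named for its KD minus NC change and NAP1L5 for its separation in KD, so the naming favoured such regions. The share over all members was not counted. The difference was tested in each and did not pass. HLA-F, a class Ib antigen-presenting molecule, had a log2 IP over IN of 1.78 in KD and -1.71 in NC, a change of 3.42 (edgeR adjusted p = 0.25), on 20 KD IP and 3 KD IN reads. EEF1A2, an elongation factor isoform, had 1.66 in KD and -1.54 in NC, a change of 3.14 (edgeR adjusted p = 0.091), on 47 KD IP and 8 KD IN reads, against 308 NC IP and 470 NC IN reads. H2BC21, a histone H2B gene, had -1.47 in KD and 2.19 in NC, a change of -3.73 (edgeR adjusted p = 0.21), with 27 NC IP and 3 NC IN reads. NAP1L5 had -2.02 in KD and 1.86 in NC, a change of -3.95 (edgeR adjusted p = 0.2), with 15 NC IP and 2 NC IN reads. RPL28, a ribosomal protein, had -1.93 in KD and 0.99 in NC, a change of -2.99 (edgeR adjusted p = 0.091), on 28 KD IP and 61 KD IN reads, against 222 NC IP and 60 NC IN reads.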

How the results depend on the processing

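The calls of KD IP over IN were 2364, of which 1312 were higher. Tests on fewer regions gave fewer: 1462 (818 higher, 644 lower) with 1 region per cluster, 1220 (604, 616) for KD-named and 1129 (682, 447) for NC-named peaks. An adjusted p under 0.01 left 1528 (770 higher). Leaving out 1 library gave 1748 to 2400 calls, 873 to 1359 higher and 875 to 1041 lower; without KD IP replicate 2, 873 were higher. The within-gene calls ranged from 121 to 199 in this way, lowest without KD IP replicate 2. The change between KD and NC had 0 calls, and 0 to 3 with 1 library left out, 1 without KD IN replicate 1 or 2, 2 without NC IP replicate 1 and 3 without NC IN replicate 1. It had 27 with DESeq2, 45 with no count filter and 32 with a replicate block. The same replicate block gave 2325 calls of IP over IN and 180 within genes. The deviations of libraries of the same number correlated at 0.037, 0.0323 and 0.0467. The main tests did not take the numbers as pairs, but such low values cannot exclude pairing. Each KD IP library still correlated best with the KD IN library of its number, a hint from the data alone. With library size alone, 64.7% of calls were higher, against 55.5% under TMM scaling, and the median log2 over all regions was 0.42, against 0.28. Over the named regions, 1922 of 1968 values under other settings kept their direction and side of the threshold, and 0 reversed; with 1 library left out it was 1263 of 1332, and 0 reversed. Unless the construction of a setting shows it, the cause was not tested. Regions with few input reads limit the precision of high folds.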

Other observations

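Some regions outside protein-coding genes also held strong enrichment, chosen here after their values were seen. A region that overlaps the lncRNA gene TNK2-AS1 (chromosome 3, 195908700 to 195909560, minus strand) had 311, 272 and 244 CPM in KD IP, against 8.08, 4.70 and 9.69 CPM in KD IN, a log2 of 5.21 ± 0.24 on 1502 KD IP and 22 KD IN reads. The annotation at hand gave no strand for that gene, so the RNA read there may be of the other strand. EFCAB13-DT, a divergent transcript, had 155, 129 and 112 CPM in KD IP, against 29.3, 18.8 and 46.3 CPM in KD IN (log2 2.08 ± 0.26). NEAT1, the scaffold RNA of paraspeckles, had a log2 of -0.03 ± 0.32 with overlapping libraries. Of 19 regions of genes other than protein-coding ones, 4 were higher and 1 lower, and of 37 regions in no gene, 11 were higher and 1 lower. Over all 4396 regions 16.9% were higher and 17.5% lower. The median log2 of the regions in no gene was 1.16, against 0.14 over all regions. It was also 1.16 in the 1465 regions with 0 to 18 KD IN reads, and the part of input level was not tested.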
